A study of Mus musculus with 59 samples.

Results

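The 9 Kelch-like genes described here, Klhl38, Klhl40, Klhl41, Klhl31, Klhl30, Klhl33, Klhl34, Klhl24 and Klhl21, were taken by symbol from the 47643 gene symbols of the deposited table, and all 9 were present. They were followed across 59 muscle libraries of female NCI Ath/nude mice, 4 months old, each carrying a human melanoma xenograft. These mice are athymic and lack most T cells. The xenograft was either a melanoma that causes muscle wasting (cachectic) or one that does not (non-cachectic). Each kind was 1 xenograft and no tumor-free mice were included, so wasting and other differences between the 2 melanomas cannot be told apart. Diaphragms came from cachectic mice given mock injections (n = 10) or rFibcd1 (n = 10) and from non-cachectic mice given mock injections (n = 9) or rFibcd1 (n = 10). rFibcd1 is recombinant Fibcd1, a secreted protein examined as a regulator of myofiber size, and mock injections held its vehicle of albumin in buffered saline. In the hindlimb, 5 tibialis anterior and 5 soleus libraries were from cachectic mice and as many of each from non-cachectic mice, with no injection named in the labels. Values are TPM, a transcript abundance scaled to a fixed total per library and for transcript length, which allows levels of different genes to be compared.

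Kelch-like proteins join a BTB domain, which binds the scaffold protein cullin 3 (CUL3), to a propeller of Kelch repeats, which holds a client protein. Most serve as substrate adaptors of CUL3 ubiquitin ligases, and the ligase is switched on when the small protein Nedd8 is attached to the cullin. In skeletal muscle, Klhl40 and Klhl41 are known to keep sarcomeric proteins stable, among them nebulin and leiomodin 3 of the thin filament, and their loss causes nemaline myopathy. Klhl31 is required for normal muscle structure in mice, Klhl24 is known for the turnover of intermediate filament proteins, and Klhl21 is known as a CUL3 adaptor in cell division.

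Promoter sequences of 4 of these genes are shown because these genes had the clearest differences between muscles or between melanomas in soleus. Each window covers 250 bases before and 50 bases after the transcript start as annotated by RefSeq on GRCm38.p6, written on the strand of the gene. Capitals mark E-boxes (CANNTG, the core motif bound by myogenic factors such as MyoD) and MEF2 motifs.
Klhl40, chr9:121777357-121777656, plus strand: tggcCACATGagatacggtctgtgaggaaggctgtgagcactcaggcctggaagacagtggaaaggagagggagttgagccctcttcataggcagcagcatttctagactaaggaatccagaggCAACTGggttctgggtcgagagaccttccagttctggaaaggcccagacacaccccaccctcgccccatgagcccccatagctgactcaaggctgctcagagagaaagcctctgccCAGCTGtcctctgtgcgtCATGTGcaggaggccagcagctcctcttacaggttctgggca
Klhl41, chr2:69669870-69670169, plus strand: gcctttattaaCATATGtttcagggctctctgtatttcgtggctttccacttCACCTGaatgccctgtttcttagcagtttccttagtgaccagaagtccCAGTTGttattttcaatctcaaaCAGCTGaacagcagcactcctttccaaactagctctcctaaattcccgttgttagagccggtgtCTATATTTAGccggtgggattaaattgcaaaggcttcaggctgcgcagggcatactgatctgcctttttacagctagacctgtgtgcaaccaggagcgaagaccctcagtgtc
Klhl34, chrX:157818185-157818484, plus strand: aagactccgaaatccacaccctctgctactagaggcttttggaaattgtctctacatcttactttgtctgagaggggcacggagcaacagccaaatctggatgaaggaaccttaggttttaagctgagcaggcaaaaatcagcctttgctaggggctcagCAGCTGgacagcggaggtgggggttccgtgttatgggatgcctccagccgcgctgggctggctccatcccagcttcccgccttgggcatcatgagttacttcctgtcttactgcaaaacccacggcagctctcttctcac
Klhl33, chr14:50897434-50897733, minus strand: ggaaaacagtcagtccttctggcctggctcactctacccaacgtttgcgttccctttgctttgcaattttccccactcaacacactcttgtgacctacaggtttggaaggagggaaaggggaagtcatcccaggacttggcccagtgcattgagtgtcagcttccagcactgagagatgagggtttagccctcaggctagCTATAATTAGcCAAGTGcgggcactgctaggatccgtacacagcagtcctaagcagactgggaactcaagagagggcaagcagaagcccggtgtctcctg
The Klhl40 window held 4 E-boxes, 3 of them before the start and 1 after it, and no MEF2 motif. Klhl41 held 4 E-boxes and 1 MEF2 motif, all before the start. A MEF2 motif also stood in the Klhl33 window shown, just ahead of its single E-box, but not in the other Klhl33 window, which held 1 E-box, while Klhl34 had 1 E-box and no MEF2 motif. On both strands, an E-box was found in 72.3% and a MEF2 motif in 3.19% of 32851 promoter windows of the same length. Windows were available for 6 of the 9 genes (7 windows, since Klhl33 has a pair). None of the 7 held an SRF box (1.63% of all windows), a glucocorticoid response element (0.475%) or the FoxO motif GTAAACA (3.65%), and Klhl21 held 1 TATAAA motif (13.6%). These matches describe letters in a window and say nothing of binding.

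Myosin genes marked the muscles, with Myh4 (fastest fibers) at 7593 to 14537 TPM in tibialis anterior and Myh7 (slow fibers) at 4288 to 7886 TPM in soleus. Genes detected numbered 17950 to 19456 per diaphragm, 16436 to 17673 per tibialis anterior and 17514 to 18191 per soleus library. Libraries are named below by the number of their column. The cachectic soleus library 7 held 4989 TPM of Myh4, against 31.2 to 69.8 in the other 4 of its group. In the cachectic tibialis anterior library 8, mitochondrially encoded genes took 25.1% of TPM, against 38.9 to 45.6% in the other 4. Liver genes summed to 7642 TPM in non-cachectic mock diaphragm library 64, to 2126 in cachectic mock library 32 and to 1381 in cachectic rFibcd1 library 3.

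Klhl41 was the most abundant of the 9 genes in all 59 libraries, from 315 to 2477 TPM. It made up on average between 44.4% (cachectic tibialis anterior) and 68.5% (cachectic soleus) of the summed TPM of the 9 genes. Klhl40 ranked second in 33 libraries, Klhl33 in 12, Klhl21 in 7, Klhl38 in 4 and Klhl24 in 3. Klhl34 was lowest in 37 libraries and Klhl30 in 14. Among the other 28 symbols made of Klhl and a number, the highest mean over 59 libraries was 29.2 TPM, for Klhl7. The summed level of the 9 genes averaged 897 ± 54.5 TPM (SD, n = 9) in non-cachectic mock diaphragm, 1038 ± 38.9915 (SD, n = 5) in non-cachectic tibialis anterior and 1587 ± 75.3 (SD, n = 5) in non-cachectic soleus.

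**Figure D1:**
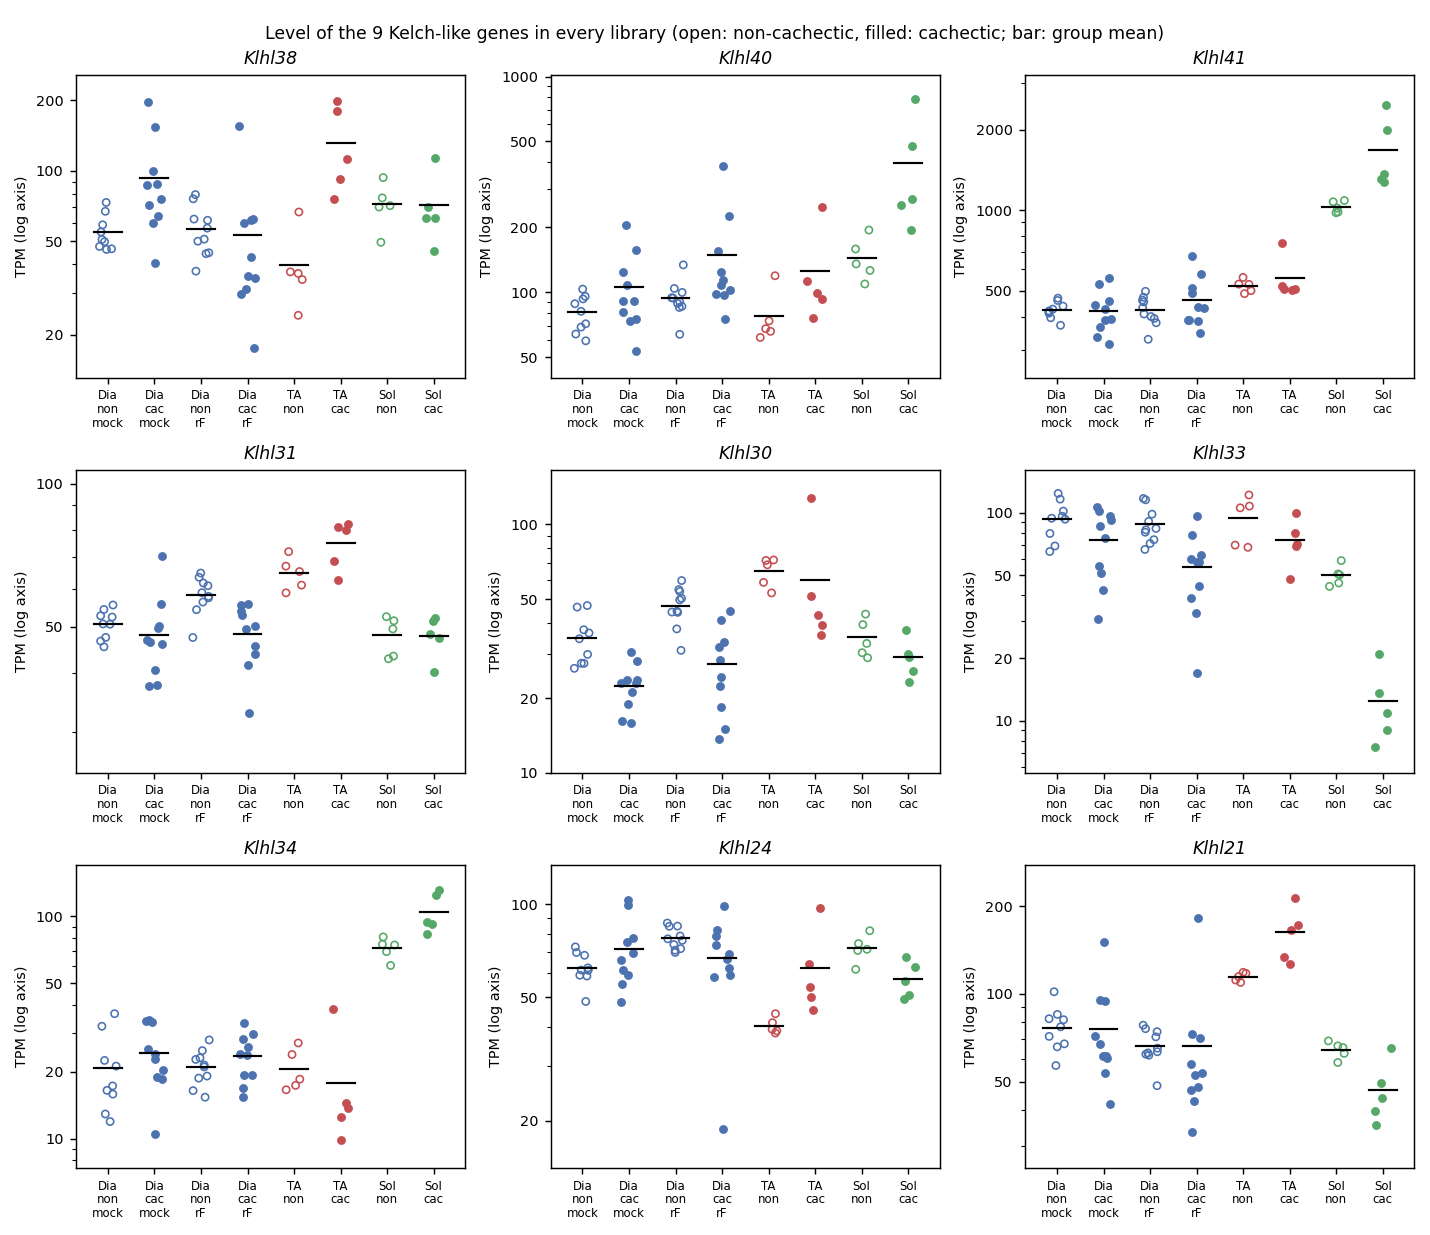
TPM of each of the 9 Kelch-like genes on a log axis in the 8 groups of diaphragm (Dia), tibialis anterior (TA) and soleus (Sol), with 1 point per library, open for non-cachectic (non) and filled for cachectic (cac), and a bar at the group mean (rF, rFibcd1). Klhl41 is the most abundant throughout, Klhl34 is highest in soleus, and Klhl33 lies at 7.48 to 20.996 TPM in cachectic soleus.

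The first comparison asked how the 9 genes differ between muscles of non-cachectic mice without rFibcd1. Klhl41 was 979, 984, 1018, 1075 and 1087 TPM in the 5 soleus libraries, 487 to 560 in tibialis anterior and 371 to 469 in mock diaphragm. The 3 ranges did not overlap and soleus was highest. Klhl34 ran from 60.2 to 80.8 TPM in soleus, from 16.6 to 26.9 in tibialis anterior and from 11.9 to 36.5 in diaphragm. Soleus stood apart from both other muscles, whose ranges overlapped. Klhl40 averaged 145 ± 32.9 TPM in soleus, 77.7 ± 23.7 in tibialis anterior (SD, n = 5 each) and 80.7 ± 15.4 in diaphragm (SD, n = 9).

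Klhl33 showed the opposite pattern, with 44.2, 45.9, 50.2, 50.7 and 58.8 TPM in soleus, against 68.1 to 122 in tibialis anterior and 65.003 to 124 in diaphragm. Both other muscles lay wholly above soleus and overlapped each other. Klhl21 was highest in tibialis anterior, where its 5 libraries lay within 110 to 119 TPM, against 58.2 to 69.0 in soleus and 56.8 to 102 in diaphragm. Klhl30 averaged 64.7 ± 8.56 TPM in tibialis anterior, 35.1 ± 6.18 in soleus (SD, n = 5 each) and 34.9 ± 7.89 in diaphragm (SD, n = 9). Klhl31 had means of 64.9, 47.9 and 50.7 TPM in the same order, so both genes were highest in tibialis anterior. Klhl24 (means of 40.5, 72.1 and 62.4 TPM) and Klhl38 (means of 39.8, 72.2 and 55.05 TPM) were lowest there.

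Differences were tested with limma on log2(TPM + 1), with p adjusted by Benjamini-Hochberg over all genes tested and a call at an adjusted p under 0.05, and changes below are on that log2 scale. All 9 members differed between tibialis anterior and soleus, where 69.5% of genes were called. Klhl31, Klhl30, Klhl33 and Klhl21 were higher in tibialis anterior, by 0.43 to 0.87, as were 5.63% of genes, and the other 5 were lower, as were 63.9%. The ranges of 7 members did not overlap, against 71.3% of genes. Klhl34 showed the widest gap, at -1.77 (SE 0.28, adjusted p = 1.92e-06). Median-ratio scaling, which divides each library by the median ratio of its genes to their averages over libraries, moved the median of all genes in that comparison from -0.47 to -0.095, and Klhl38, Klhl40 and Klhl24 were then not called, where 53.5% of genes were. By the Dunn test Klhl41, Klhl30 and Klhl34 were not called (adjusted p = 0.278, 0.118 and 0.0609), where 37% of genes were.

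Diaphragm against tibialis anterior gave 5 calls, with Klhl41, Klhl31, Klhl30 and Klhl21 lower and Klhl24 higher in diaphragm, though Klhl24 lost its call with median-ratio scaling. The Klhl41 difference (-0.30, adjusted p = 0.0331) lost its call in 4 of 39 fits that left out 1 library, namely without diaphragm library 64 with its liver transcripts (-0.28, adjusted p = 0.055) and without tibialis anterior libraries 61, 64 or 65 (adjusted p up to 0.0751). There, 72.5% of genes were called, 64% higher and 8.52% lower, and the ranges of 5 members and of 61.7% of genes did not overlap. By the Dunn test Klhl41, Klhl31 and Klhl21 were not called (adjusted p = 0.0828, 0.0645 and 0.13), where 51% of genes were. Diaphragm against soleus gave 4 calls (38.8% of genes, 16.8% higher and 22.1% lower) and 4 members with separate ranges (28.8% of genes), with Klhl40, Klhl41 and Klhl34 lower in diaphragm and Klhl33 higher. By the Dunn test Klhl40 (adjusted p = 0.0682) and Klhl33 (adjusted p = 0.0619) were not called, where 8.73% of genes were. Without soleus library 65 the Klhl40 difference was -0.72 (adjusted p = 0.0605).

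Soleus held the largest melanoma difference of any member. Klhl33 was 44.2, 45.9, 50.2, 50.7 and 58.8 TPM in non-cachectic libraries and 7.48, 9.02, 10.9, 13.5 and 20.996 TPM in cachectic ones. The groups did not overlap, and the cachectic libraries were all far lower. The change was -2.004 (SE 0.21, 95% CI -2.47 to -1.54, adjusted p = 0.000135), a 4.01-fold lower level, and -2.20 without library 7 (adjusted p = 1.47e-05). The share of Klhl33 in the summed level of the 9 genes averaged 3.16% in non-cachectic and 0.567% in cachectic soleus.

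Both sarcomere-stabilizing members rose in cachectic soleus. Klhl40 was 109, 126, 135, 159 and 194 TPM in non-cachectic and 195, 253, 270, 476 and 786 TPM in cachectic libraries. The ranges just missed each other, and the cachectic group was widely spread. The change was 1.28 (SE 0.33, adjusted p = 0.0152), and 0.99 without the highest library, 9 (adjusted p = 0.015). Klhl41 was 979, 984, 1018, 1075 and 1087 TPM in non-cachectic and 1270, 1313, 1365, 1991 and 2477 TPM in cachectic libraries. Its groups were separate, with a change of 0.66 (SE 0.17, adjusted p = 0.0181). Klhl34 was 60.2, 69.4, 74.4, 74.9 and 80.8 TPM in non-cachectic and 83.1, 92.5, 94.5, 125 and 131 TPM in cachectic libraries. It too rose without overlap, by 0.53 (SE 0.13, adjusted p = 0.0149).

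Klhl21 and Klhl24 were lower in cachectic soleus, with ranges that overlapped. Klhl21 was 58.2 to 69.0 TPM in non-cachectic and 35.5, 39.6, 43.9, 49.7 and 65.4 TPM in cachectic libraries, of which 4 lay below the non-cachectic range. Its change was -0.48 (SE 0.14, adjusted p = 0.0282) and -0.61 without library 7 (adjusted p = 0.00362), and it kept its call in 4 of the 10 fits that left out 1 library, losing it for example without cachectic library 9 (-0.39, adjusted p = 0.0561). Klhl24 averaged 72.1 ± 7.38 TPM in non-cachectic and 57.4 ± 7.69 TPM in cachectic soleus (SD, n = 5 each). Its change of -0.33 (SE 0.11, adjusted p = 0.0403) kept its call in 3 of those 10 fits and lost it in the others, such as without library 7 (-0.33, adjusted p = 0.0697). Klhl38 (72.2 ± 15.8 against 71.2 ± 25.6 TPM), Klhl31 (47.9 ± 4.55 against 47.9 ± 4.80) and Klhl30 (35.1 ± 6.18 against 29.2 ± 5.54) were not called.

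In all, 3 members rose and 3 fell in cachectic soleus, where 25.1% of the genes tested were called, 17.5% higher and 7.54% lower, and 4 members had separate ranges against 20% of genes. The median change of the 9 members was -0.056, against 0.089 over all genes. Without library 7, 5 members and 21.6% of all genes were called. In 1 fit of the 6 groups without rFibcd1, which share 1 estimate of the spread, 3 of these 6 calls were lost, those of Klhl34 (adjusted p = 0.189), Klhl21 (adjusted p = 0.0897) and Klhl24 (adjusted p = 0.149), with the same changes, and 21.1% of genes were called. By the Dunn test Klhl21 and Klhl24 were not called (adjusted p = 0.0898 for each), where 20% of genes were.

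**Figure D2:**
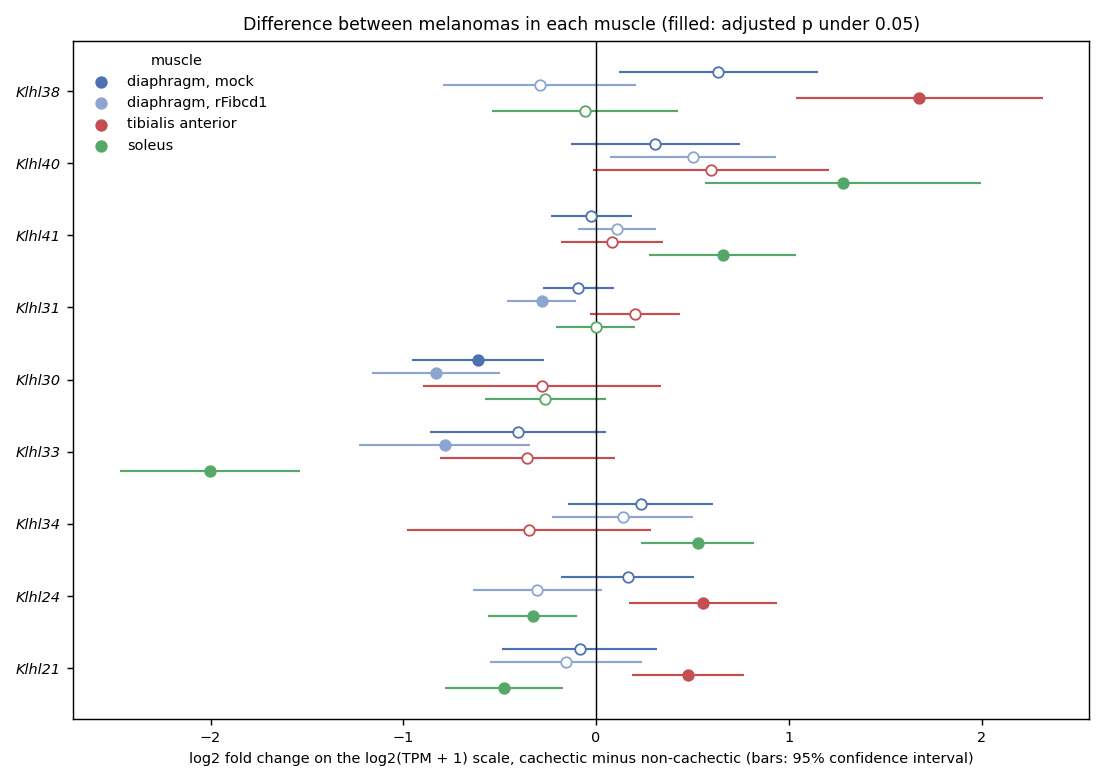
Log2 fold change of each member between cachectic and non-cachectic mice in mock diaphragm, rFibcd1 diaphragm, tibialis anterior and soleus, with 95% confidence intervals, filled where the adjusted p was under 0.05. Klhl33 in soleus (-2.004) and Klhl38 in tibialis anterior (1.68) lie farthest from 0.

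Mitochondrially encoded genes took 41.1 ± 2.00% of TPM in non-cachectic and 30.5 ± 3.92% in cachectic soleus (SD, n = 5 each), and TPM sums to the same total in every library. With TPM rescaled without those genes, the median change of all genes was -0.12 and calls were 949 higher and 2926 lower, in place of 2098 and 901. Klhl41 (0.42, adjusted p = 0.0728) and Klhl34 (0.29, adjusted p = 0.16) were then not called, and Klhl30 was called lower (-0.50, adjusted p = 0.0302). Median-ratio scaling gave 1690 higher and 1700 lower calls, and Klhl34 was not called there (0.41, adjusted p = 0.0798). Klhl33, Klhl40, Klhl21 and Klhl24 were called under both scalings. Marker genes of macrophages summed to 16.3 to 25.8 TPM in non-cachectic and 15.7 to 108 TPM in cachectic soleus, and those of neutrophils to 3.08 to 4.66 and 7.43 to 31.8 TPM. Those of fibroblasts went the other way, from 521 to 674 in non-cachectic to 204 to 541 TPM in cachectic soleus. Those of adipocytes summed to 327 to 1074 and 157 to 4825 TPM. Their part in these results was not tested. Fewer cells of a type and less RNA per cell cannot be told apart in such bulk samples.

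In tibialis anterior the largest difference was in Klhl38. It was 24.2, 34.4, 36.5, 37.1 and 66.8 TPM in non-cachectic libraries and 75.5, 91.9, 112, 180 and 198 TPM in cachectic ones. Every cachectic library was above every non-cachectic one. The change was 1.68 (SE 0.30, 95% CI 1.03 to 2.32, adjusted p = 0.00169), a 3.20-fold higher level, and between 1.51 and 1.88 when any 1 library was left out. Klhl38 kept its call under each scaling tried, at 1.22 with median-ratio scaling (adjusted p = 0.00789).

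Klhl21 was 110, 112, 115, 118 and 119 TPM in non-cachectic and 127, 134, 166, 173 and 213 TPM in cachectic tibialis anterior. Klhl24 was 38.4 to 44.3 TPM in non-cachectic and 45.6, 50.016, 53.9, 64.3 and 97.4 TPM in cachectic libraries. Both genes were higher in every cachectic library, by 0.48 (SE 0.13, adjusted p = 0.0123) for Klhl21 and 0.56 (SE 0.18, adjusted p = 0.0196) for Klhl24. With median-ratio scaling these changes were 0.02 (adjusted p = 0.897) and 0.10 (adjusted p = 0.442), so both calls depended on the scaling, although without mitochondrially encoded genes Klhl21 was still called (0.24, adjusted p = 0.0451). The 3 calls, all higher, stand against 60.2% of genes called, 56.4% higher and 3.78% lower, and the 3 separate ranges against 51.7% of genes. The median change was 0.20 for the members and 0.41 for all genes.

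No member was called lower in tibialis anterior in TPM, which rested on the scaling and on library 8. Mitochondrially encoded genes took 48.5 ± 1.80% of TPM in non-cachectic and 38.8 ± 8.12% in cachectic libraries (SD, n = 5 each). Median-ratio scaling brought the median of all genes to 0.02 and the calls from 6260 higher and 420 lower to 2340 and 2177. Under it Klhl30 (-0.74, adjusted p = 0.0103), Klhl34 (-0.79, adjusted p = 0.0143), Klhl33 (-0.81, adjusted p = 0.0474) and Klhl41 (-0.38, adjusted p = 0.00292) were called lower.

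Klhl30 was 53.0 to 71.9 TPM in non-cachectic tibialis anterior and 36.038, 39.3, 43.2, 51.7 and 128 TPM in cachectic libraries. Of the 5 cachectic libraries, 4 lay below the whole non-cachectic range and library 8 far above it. Without library 8, Klhl30 (-0.60, adjusted p = 0.00166) and Klhl34 (-0.66, adjusted p = 0.00387) were called lower and Klhl31 higher (0.26, adjusted p = 0.0107), which made 6 members called in place of 3, in a fit that called 66.7% of all genes. Klhl40 averaged 77.7 ± 23.7 against 126 ± 69.4 TPM (SD, n = 5 each), a change of 0.60 (adjusted p = 0.0813), and was called without cachectic library 6 (0.74, adjusted p = 0.0388) or non-cachectic library 65 (0.76, adjusted p = 0.0404), while without library 8, its highest, it was 0.32 (adjusted p = 0.141). Macrophage markers summed to 4.65 to 8.69 TPM in non-cachectic and 7.33 to 51.0 in cachectic tibialis anterior, and their part was not tested.

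**Figure D3:**
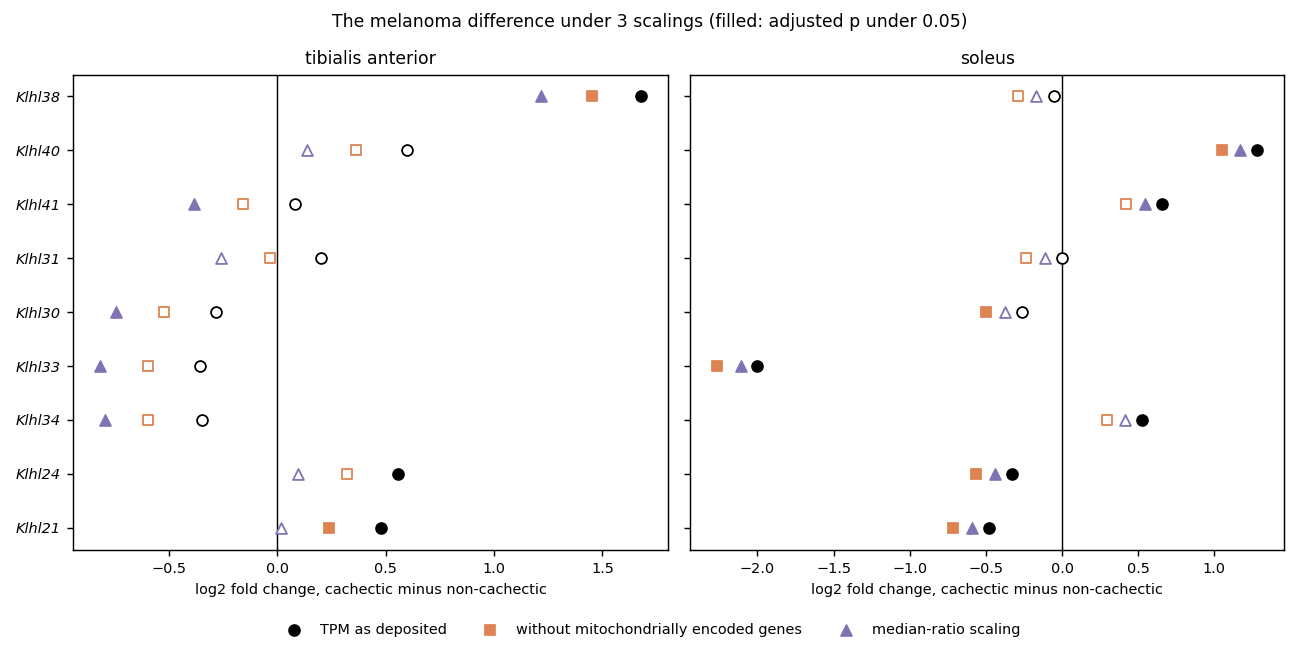
Log2 fold change of each member between cachectic and non-cachectic mice in tibialis anterior and soleus, from TPM as deposited (circles), from TPM without mitochondrially encoded genes (squares) and with median-ratio scaling (triangles), filled where the adjusted p was under 0.05. In tibialis anterior median-ratio scaling lowers every member, Klhl38 from 1.68 to 1.22 and Klhl21 from 0.48 to 0.02.

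The melanoma difference was then compared between muscles, in 1 fit of the 39 libraries without rFibcd1. Libraries of different muscles were taken as independent in it, although some may come from the same mouse. Between tibialis anterior and soleus, 5 members differed (20.4% of genes did). The change in tibialis anterior minus that in soleus was 1.73 for Klhl38 (SE 0.42, adjusted p = 0.00529), 1.65 for Klhl33 (SE 0.38, adjusted p = 0.00338), 0.96 for Klhl21 (SE 0.29, adjusted p = 0.0199) and 0.88 for Klhl24 (SE 0.23, adjusted p = 0.00859), a sign in which 19.1% of genes were called. For Klhl33 the larger change was the fall in soleus (-2.004), against -0.36 in tibialis anterior (-0.22 without library 8), while for Klhl38 it was the rise in tibialis anterior (1.68), against -0.056 in soleus. Klhl41 had the opposite sign, at -0.57 (SE 0.20, adjusted p = 0.0424), as 1.26% of genes did, and lost its call in 15 of 39 fits that left out 1 library. In TPM, Klhl21 and Klhl24 rose in tibialis anterior and fell in soleus. With median-ratio scaling Klhl38 (1.39, adjusted p = 0.0383) and Klhl41 (-0.92, adjusted p = 0.00175) kept their calls, Klhl34 was called (-1.21, adjusted p = 0.027), and Klhl33 (1.29, adjusted p = 0.0531), Klhl24 (0.54, adjusted p = 0.0623) and Klhl21 (0.61, adjusted p = 0.205) were not, where 9.95% of genes were called, while without mitochondrially encoded genes all 5 kept their calls. Klhl21 was also lost without tibialis anterior library 8 (0.85, adjusted p = 0.051), where Klhl34 was gained (-1.18, adjusted p = 0.0297).

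Mock diaphragm differed from soleus in the melanoma difference of Klhl33, by 1.60 (SE 0.33, adjusted p = 0.0049), and of Klhl41, by -0.68 (SE 0.18, adjusted p = 0.0298), where 2.52% of genes differed, 1.95% upward and 0.57% downward, and both kept their calls under the other scalings. Klhl41 lost that call in 5 of 39 fits that left out 1 library, such as without soleus library 9 (-0.53, adjusted p = 0.0699). By limma 0 of 9 members passed between diaphragm and tibialis anterior, where 5.04% of genes did, 0.711% upward and 4.33% downward, and 3 members had an unadjusted p under 0.05. The largest of these differences was -1.04 for Klhl38 (95% CI -1.79 to -0.29, adjusted p = 0.0865), which passed without diaphragm library 20 (-1.18, adjusted p = 0.0319) or tibialis anterior library 6 (-1.15, adjusted p = 0.0479). Klhl21 passed without diaphragm library 20 as well (-0.68, adjusted p = 0.043).

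In mock-injected diaphragms the melanoma comparison called 1 member, Klhl30, where 33.5% of genes were called, 30.9% higher and 2.67% lower. Klhl30 ran from 26.3 through a median of 34.7 to 47.1 TPM in non-cachectic mice and from 15.9 through 23.0 to 30.6 TPM in cachectic mice. The cachectic libraries lay lower with a zone of overlap, and the change was -0.61 (SE 0.17, adjusted p = 0.00617). It kept its call in all 39 fits that left out 1 library and under both other scalings. None of the 9 had separate ranges (4.36% of genes did). The median change was -0.025 for the members and 0.20 for all genes.

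Klhl38 ran from 46.2 through a median of 50.9 to 73.3 TPM in non-cachectic and from 40.6 through 81.4 to 196 TPM in cachectic mock diaphragms. The cachectic group was the more spread and covered the whole non-cachectic range. Its change of 0.63 (SE 0.25, 95% CI 0.12 to 1.15) missed the threshold (adjusted p = 0.051). It was called in 8 of the 39 fits without 1 library, such as without cachectic library 32 with its liver transcripts (0.75, adjusted p = 0.0233), and was 0.50 without library 20, the highest (adjusted p = 0.114). Klhl33 had medians of 94.0 and 80.9 TPM (-0.41, adjusted p = 0.157), and the other 6 changed by between -0.092 and 0.31 with adjusted p from 0.267 to 0.864. With median-ratio scaling, which turned the calls of all genes from 4143 higher and 358 lower into 1025 and 1193, Klhl31 was called lower as well (-0.32, adjusted p = 0.0297). Macrophage markers summed to 32.2 to 67.0 TPM in non-cachectic and 43.0 to 164 TPM in cachectic mock diaphragms, and their part was not tested.

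In rFibcd1-injected diaphragms 3 members were called between the melanomas, all lower in cachectic mice, where 9.11% of genes were called, 7.14% higher and 1.97% lower, and all 3 kept their calls under both other scalings. Klhl30 ran from 31.1 through a median of 47.2 to 59.4 TPM in non-cachectic and from 13.7 through 26.4 to 44.997 TPM in cachectic mice (-0.83, SE 0.17, adjusted p = 0.0028). Klhl33 ran from 66.5 through 83.3 to 117 TPM and from 16.9 through 58.1 to 96.8 TPM (-0.78, SE 0.22, adjusted p = 0.0201). In both genes the cachectic libraries were lower and overlapped the others. Klhl31 ran from 47.5 through 58.5 to 64.9 TPM and from 32.9 through 49.9 to 55.9 TPM (-0.28, SE 0.09, adjusted p = 0.0384), and lost its call in 11 of the 39 fits without 1 library, library 3 among them (-0.27, adjusted p = 0.0651). No member had separate ranges (0.0521% of genes did). The median change was -0.28 for the members and 0.084 for all genes. The Dunn test called none of the 9 here and no gene at all. Macrophage markers summed to 37.7 to 134 TPM in non-cachectic and 37.9 to 342 TPM in cachectic rFibcd1 diaphragms, and their part was not tested.

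A state of the libraries ran alongside the groups. The transcript Pcna-ps2 was at 1 TPM or more in 9 of 10 cachectic mock, 8 of 10 cachectic rFibcd1, 3 of 9 non-cachectic mock and 6 of 10 non-cachectic rFibcd1 diaphragms, and in the limb muscles in all 10 cachectic and 0 of 10 non-cachectic libraries. In the limb muscles this state and the melanoma cannot be told apart. With the state as a term in the model, Klhl30 was at -0.60 in mock diaphragm (adjusted p = 0.0265) and -0.83 in rFibcd1 diaphragm (adjusted p = 0.0033). Among diaphragms of the high state alone it was -0.78 (adjusted p = 0.0563) and -0.57 (adjusted p = 0.302), and Klhl33 (-0.56, adjusted p = 0.355) and Klhl31 (-0.19, adjusted p = 0.349) were not called in rFibcd1 mice either.

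The effect of rFibcd1 was compared with mock within each melanoma, and these comparisons share libraries with those above. In cachectic mice, Klhl38 ran from 40.6 through a median of 81.4 to 196 TPM after mock and from 17.5 through 39.2 to 155 TPM after rFibcd1. Of the 10 rFibcd1 libraries, 9 were at or below 62.3 TPM and library 3 was at 155 TPM. The change was -0.91 (SE 0.25, 95% CI -1.41 to -0.41, p = 0.000726, adjusted p = 0.202 by limma). Without library 3 it was -1.11 (adjusted p = 0.0101), and without mock library 20 it was -0.78 (adjusted p = 0.323). Library 3 also held liver transcripts, whose part was not tested. Klhl38 is one of the genes that the study picked for their response to rFibcd1 in cachectic diaphragms of this experiment, so its direction is not independent evidence. The study's cachectic groups were smaller than the 10 and 10 libraries used here, and which libraries they held is not given in the sources used here.

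The Klhl33 difference after rFibcd1 in cachectic mice was -0.45 (p = 0.0451, adjusted p = 0.471 by limma), and -0.29 without rFibcd1 library 11 (adjusted p = 0.405). Klhl40 had medians of 90.9 and 111 TPM and a highest rFibcd1 library of 385 TPM, with a change of 0.41 (p = 0.058, adjusted p = 0.491 by limma) and of 0.24 without that library (adjusted p = 0.85). In that comparison 0 of 9 members passed by limma and 2 had an unadjusted p under 0.05, and the Dunn test called none. Of 13426 genes, 6 (0.0447%) were called by limma, 0.0372% higher and 0.00745% lower, 1412 had an unadjusted p under 0.05 and 0 were called by the Dunn test. No gene had separate ranges.

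In non-cachectic mice Klhl38 was 55.05 ± 9.66 TPM after mock (SD, n = 9) and 56.4 ± 13.6 TPM after rFibcd1 (SD, n = 10), a change of 0.015 (95% CI -0.50 to 0.53). The largest changes were 0.43 for Klhl30 (p = 0.0158, adjusted p = 0.257 by limma) and 0.31 for Klhl24 (p = 0.0725, adjusted p = 0.302 by limma). None of the 9 passed by limma or by the Dunn test, 2 had an unadjusted p under 0.05, and limma called 0.417% of genes (0.35% upward and 0.067% downward), where 2332 genes had an unadjusted p under 0.05 and the Dunn test called 14. Separate ranges were found in 0.41% of genes. The difference of the rFibcd1 effect between the melanomas was -0.93 for Klhl38 (SE 0.36, p = 0.0129, adjusted p = 0.543 by limma). There 0 of 9 members were called by limma, 1 had an unadjusted p under 0.05, and calls were made for 0.0223% of genes (0.00745% upward and 0.0149% downward), 1180 genes having an unadjusted p under 0.05. The rFibcd1 effect on Klhl38 was therefore not shown to differ between cachectic and non-cachectic mice. An index of clock genes (Arntl, Npas2 and Clock against Dbp, Per2, Per3 and other genes of the opposite phase) averaged -1.50 after mock and 1.83 after rFibcd1 in non-cachectic mice and -0.65 and 0.17 in cachectic mice. With the index as a term the Klhl38 change in cachectic mice was -0.77 (adjusted p = 0.343).

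The members did not all vary together. Over the 39 diaphragms, with group means removed, 23 of the 36 pairs of members had a positive Pearson r, from -0.64 to 0.72 with a median of 0.14. These values, and those that follow, describe libraries that share normalization and carry no p. The highest were Klhl38 with Klhl21 (0.72), Klhl33 with Klhl21 (0.64) and Klhl40 with Klhl41 (0.61). The lowest was Klhl40 with Klhl33 (-0.64), a pair that over the levels of all 59 libraries was at -0.85.

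**Figure D4:**
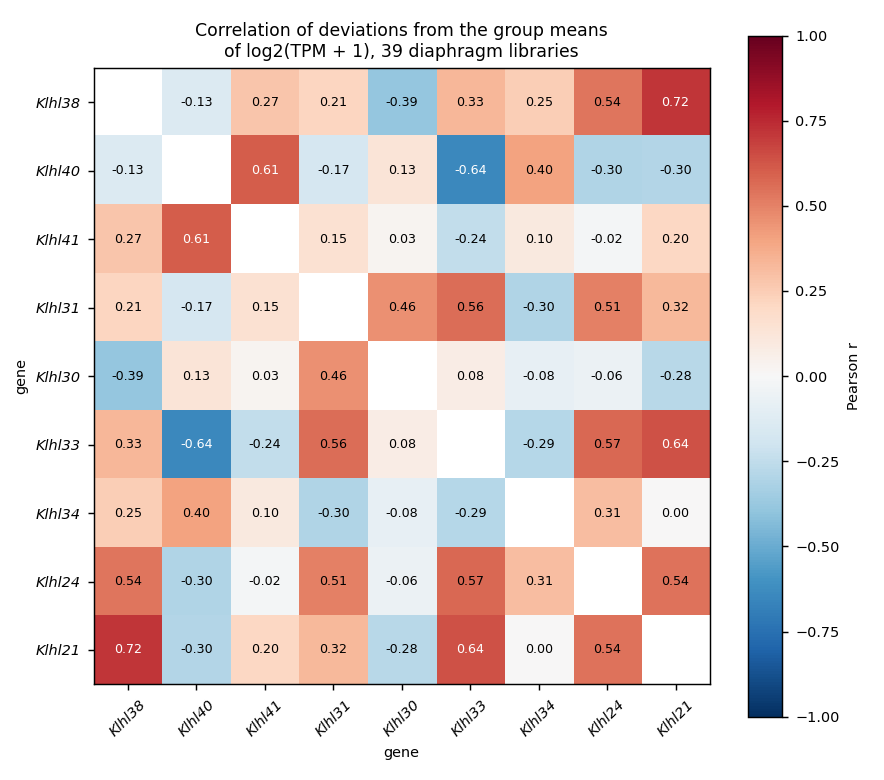
Pearson r between each pair of the 9 members over 39 diaphragm libraries, from log2(TPM + 1) with group means removed. Klhl38 and Klhl21 lie at 0.72 and Klhl40 and Klhl33 at -0.64.

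Among genes with a mean of at least 5 TPM, Fbxo32, the muscle ubiquitin ligase atrogin-1 known for its rise in wasting, followed Klhl38 most closely, with r = 0.90 over 59 libraries and 0.89 over the 39 diaphragm deviations. Without the 2 most extreme libraries these were 0.87 and 0.84. Fbxo32 lies on the same strand of chromosome 15 (chr15:58175879-58214932) as Klhl38 (chr15:58314573-58324169), with 99640 bases between them on GRCm38. In tibialis anterior Fbxo32 averaged 60.5 ± 19.9 TPM in non-cachectic and 365 ± 275 TPM in cachectic mice, and in soleus 169 ± 12.1 and 155 ± 88.7 TPM (SD, n = 5 each). Cachectic soleus library 7, with its high Myh4, held 310 TPM of Fbxo32. The others of its group held 95.6 to 143 TPM, below the non-cachectic range of 150 to 182 TPM. Library 7 was also the highest soleus library for Klhl38 (114 TPM). Without it the Klhl38 change in soleus was -0.24 (adjusted p = 0.355 by limma). The diaphragms with most Klhl38 among cachectic mock (library 20, 196 TPM) and cachectic rFibcd1 mice (library 3, 155 TPM) held 877 and 660 TPM of Fbxo32, the highest of their groups.

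**Figure D5:**
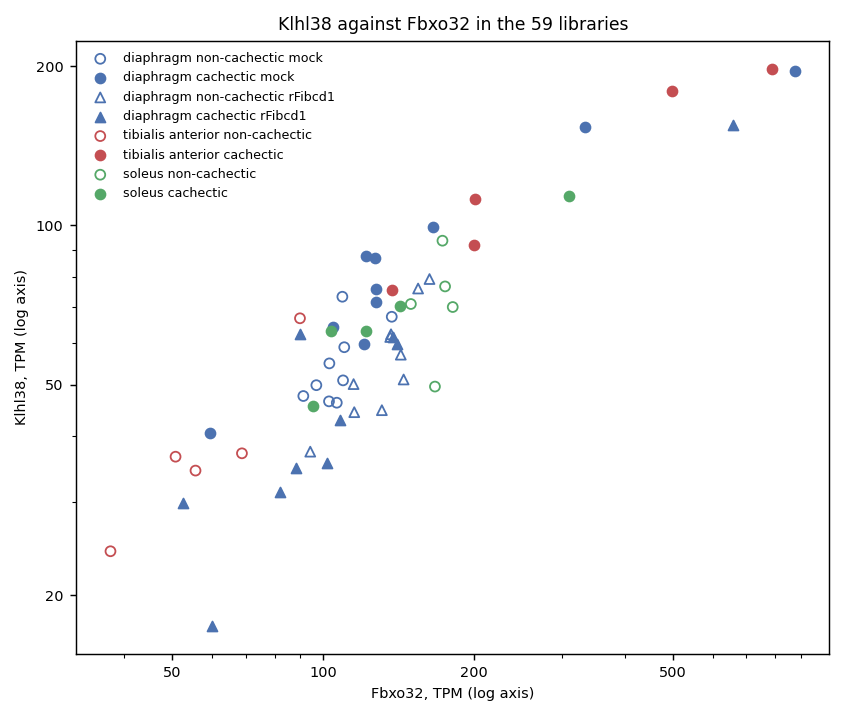
Klhl38 against Fbxo32 in TPM on log axes, 1 point per library in the 8 groups. The points rise together (r = 0.90 over 59 libraries), with cachectic tibialis anterior and single cachectic diaphragms at the upper end.

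Klhl40 was closest to Flnc, which encodes filamin C of the Z-disc (r = 0.91 over 59 libraries), and in the diaphragm deviations to Synpo2l (0.88). Klhl41 was closest to Pomgnt1, an enzyme of dystroglycan glycosylation (0.92), and in the diaphragm to Dysf, the membrane repair protein dysferlin (0.74). The gene nearest to Klhl33 was A930018M24Rik on both measures (0.97 and 0.95). Over the 59 libraries, Klhl34 was nearest to Hspa1l, a heat-shock protein of the Hsp70 family (0.92), Klhl31 to Klhl8 (0.80), Klhl30 to Smtnl2 (0.83), Klhl24 to the histone methyltransferase gene Kmt2c (0.88) and Klhl21 to the phosphodiesterase gene Gpcpd1 (0.87). The diaphragm value of Klhl24 with Tnks was 0.89 and 0.65 without 2 libraries.

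The partners of these proteins in the ligase were examined as a list of 25 CUL3 machinery genes. In TPM, 0 were called lower and 12 higher in cachectic mock diaphragm, 4 higher in rFibcd1 diaphragm, 12 in tibialis anterior and 7 in soleus, where 30.9%, 7.14%, 56.4% and 17.5% of all genes were called higher. The list medians were 0.17, 0.12, 0.35 and 0.17, against 0.20, 0.084, 0.41 and 0.089 over all genes. This direction depended on the scaling. Median-ratio scaling gave 0 higher and 2 lower, 0 and 0, 2 and 5, and 3 and 2 in the same order. TPM without mitochondrially encoded genes gave 0 and 2, 0 and 2, 6 and 0, and 1 and 4. List medians were -0.047, 0.040, -0.069 and 0.056 with median-ratio scaling, against 0.0091, 0.011, 0.016 and -0.0091 over all genes. Without mitochondrially encoded genes they were -0.054, -0.026, 0.15 and -0.067, against 0.0032, -0.042, 0.23 and -0.12. The shares of all genes called higher and lower under both scalings are given with the other Kelch genes below. Ube2m, the enzyme that attaches Nedd8 to cullins, was called higher in all 4 in TPM, in soleus at 80.4 ± 4.52 against 62.04 ± 2.87 TPM (0.37, adjusted p = 0.00328), and with median-ratio scaling in soleus only (0.26, adjusted p = 0.0228), and without mitochondrially encoded genes in tibialis anterior only (0.36, adjusted p = 0.00799). Cul3 itself was called in tibialis anterior alone in TPM, at 165 ± 46.9 against 119 ± 11.7 TPM (0.44, adjusted p = 0.033), and was at -0.027 there with median-ratio scaling (adjusted p = 0.802). For rFibcd1, 0 of the 25 were called by limma in either melanoma, and before adjustment 2 (cachectic) and 4 (non-cachectic) had a p under 0.05.

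Of 13 thin-filament and nemaline myopathy genes, which include clients of Klhl40 and Klhl41, 6 rose and 1 fell in cachectic soleus in TPM, where 17.5% of all genes rose and 7.54% fell, with a list median of 0.31 against 0.089 over all genes. With median-ratio scaling 3 rose and 1 fell, and without mitochondrially encoded genes 2 rose and 1 fell. Flnc, a member of the list that encodes a Z-disc rather than a thin-filament protein, was 498 ± 42.9 TPM in non-cachectic soleus. In cachectic soleus it was 1179 ± 418 TPM (1.18, adjusted p = 0.00153). The gene that fell was Lmod3, which encodes leiomodin 3, at 278 ± 21.5 against 172 ± 35.8 TPM (-0.71, adjusted p = 0.00365). Lmod3 was also lower in cachectic mock diaphragm (-0.79, adjusted p = 0.000229), rFibcd1 diaphragm (-0.47, adjusted p = 0.0366) and tibialis anterior (-0.62, adjusted p = 0.0253), and was called lower in all 4 under both other scalings, by -0.55 to -1.08. In tibialis anterior 3 of the 13 rose and 4 fell (1 and 4 with median-ratio scaling, 3 and 4 without mitochondrially encoded genes), where 56.4% of all genes rose and 3.78% fell, with Acta1, the skeletal muscle actin, at 34080 ± 2682 in non-cachectic and 19701 ± 6243 TPM in cachectic libraries (-0.87, adjusted p = 0.0105). Mock diaphragm gave 4 higher and 1 lower, where 30.9% and 2.67% of all genes were called, but 0 and 1 with median-ratio scaling and 0 and 2 without mitochondrially encoded genes. Among the 4 was Neb (nebulin) at 0.41 (adjusted p = 0.0235), which was 0.18 with median-ratio scaling (adjusted p = 0.3). In rFibcd1 diaphragm 0 were higher and 1 lower, where 7.14% and 1.97% of all genes were called. Median-ratio scaling gave the same counts there, and TPM without mitochondrially encoded genes gave 0 and 3. For each comparison, the shares of all genes under these other scalings are given with the other Kelch genes below. For rFibcd1 against mock 0 of the 13 were called by limma, and before adjustment 0 (cachectic) and 1 (non-cachectic) had a p under 0.05.

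Among 41 other Kelch genes, Kbtbd12 had the largest difference in both limb muscles, and it was called there under all 3 scalings. It was 9.29 ± 0.78 TPM in non-cachectic and 94.4 ± 10.1 TPM in cachectic tibialis anterior (3.21, adjusted p = 7.08e-09) and 8.08 ± 1.05 against 62.1 ± 6.25 TPM in soleus (2.80, adjusted p = 2.89e-08), with SD over n = 5 each. In mock diaphragm it was 23.3 ± 25.1 against 45.9 ± 15.5 TPM (1.47, adjusted p = 0.0397). There it was 1.26 with median-ratio scaling (adjusted p = 0.0934) and 1.28 without mitochondrially encoded genes (adjusted p = 0.128). In rFibcd1 diaphragm these values were 0.33 (adjusted p = 0.721) and 0.27 (adjusted p = 0.804). The Pcna-ps2 state splits the limb libraries as the melanoma does, so the 2 cannot be told apart for Kbtbd12 there. In TPM, 18 of 30 tested were higher and 1 lower in tibialis anterior, 3 of 33 higher and 2 lower in soleus, 6 of 35 higher and 1 lower in mock diaphragm, and 0 of 35 higher and 1 lower in rFibcd1 diaphragm. Over all genes 56.4%, 17.5%, 30.9% and 7.14% were higher and 3.78%, 7.54%, 2.67% and 1.97% lower in the same order. With median-ratio scaling these counts became 7 higher and 9 lower, 3 and 5, 2 and 4, and 0 and 2 in the same order, and without mitochondrially encoded genes 11 and 4 of 34 tested, 2 and 9 of 35, 2 and 3 of 35, and 0 and 4 of 35. Over all genes the shares were then 21.1% and 19.6%, 14.1% and 14.2%, 7.63% and 8.89%, and 4.25% and 5.17% with median-ratio scaling, and 38.9% and 8.7%, 7.46% and 23%, 6.43% and 7.09%, and 2.81% and 5.86% without mitochondrially encoded genes. Klhl23 was lower in cachectic mock diaphragm (-0.64, adjusted p = 0.00162), rFibcd1 diaphragm (-0.52, adjusted p = 0.0191) and soleus (-0.80, adjusted p = 0.0112), also with both other scalings. In tibialis anterior it was called lower with median-ratio scaling (-0.64, adjusted p = 0.0145) and without mitochondrially encoded genes (-0.51, adjusted p = 0.0381). For rFibcd1 against mock 0 of the list were called by limma, and before adjustment 4 (cachectic) and 10 (non-cachectic) had a p under 0.05.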

How the data were processed

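RNA-seq values of 59 muscle libraries came from 1 deposited table. The authors made the TPM values in it with CLC Genomics Workbench on the mouse genome (mm10), and the annotation is not given in the sources used here. The labels and the study's methods name different library kits, so whether reads were counted by strand was not settled, and Klhl38, Klhl40 and Klhl21 cannot be told apart from Gm15943, Gm47108 and Gm9768, which overlap them on the other strand. TPM keeps no sequencing depth, so depth is unknown and no counting intervals are given. A GENCODE M21 name existed for 94.7% of the symbols, all 9 members included.

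Samples were grouped from the labels, and in the main fits column numbers were used only as library names. Equal numbers in different muscles were also compared, and served as a replicate block in 1 alternative. The study's methods count tissues of independent animals as its n, but no source used here says which libraries of different muscles came from the same mouse. Values were log2(TPM + 1), which understates changes of low genes. Genes with at least 1 TPM in as many samples as the smallest group of the fit were tested with limma 3.58.1 in R 4.3.3 (eBayes with a trend, two-sided, Benjamini-Hochberg over all genes of a comparison, calls at 0.05). Diaphragm (39 libraries), tibialis anterior (10) and soleus (10) were fitted separately, and muscles were compared in 1 fit of the 39 libraries without rFibcd1. Libraries of different muscles were taken as independent in that fit. Alternatives were the Dunn test that the study used, a pseudocount of 0.1, no filter, median-ratio scaling, TPM without the 37 mitochondrially encoded genes, terms for the Pcna-ps2 state and for a clock-gene index, high-state libraries alone, 1 fit of the 6 groups without rFibcd1 and leaving out each library. Gene lists under both other scalings and a replicate block over column numbers were added after the data were seen. The code was tested on simulated data. Every member is named, and from each gene list at most 4 called genes with the largest changes per comparison. Lmod3 in tibialis anterior, Cul3, Ube2m, Neb and Klhl23 in mock diaphragm, Klhl7 and the group levels of Fbxo32 fall partly outside that rule and were named after their values were seen. The same holds for Klhl23 in tibialis anterior and Kbtbd12 in rFibcd1 diaphragm. Members, lists and tests were chosen with earlier results of these data known.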

Additional observations from a re-analysis of the deposited data

Results flagged for a closer look

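In 10 of 72 combinations of 9 members and 8 groups, 1 library lay far from the rest of its group by Dixon's ratio. Chance gives that in about 1 in 20 groups if values are normally distributed. The ratio was taken on TPM rather than on log2(TPM + 1), so that rate may not hold here. These 10 came from 6 libraries and are not independent, since tibialis anterior library 8 accounts for 4 of them and rFibcd1 diaphragm library 3 for 2. In cachectic rFibcd1 diaphragm, library 3 was the highest for Klhl38 (154.7 TPM, next 62.3) and Klhl21 (181.7 TPM, next 73.1), library 1 the highest for Klhl40 (384.9 TPM, next 226.9) and library 11 the lowest for Klhl24 (18.8 TPM, next 58.3). In cachectic mock diaphragm, library 20 was the highest for Klhl21 (150.2 TPM, next 95.1). In non-cachectic tibialis anterior, library 65 was the highest for Klhl40 (119.3 TPM, next 73.7). Cachectic tibialis anterior library 8, which had the lowest mitochondrial share of the 10 tibialis anterior libraries, was the highest for Klhl40 (247.6 TPM, next 112), Klhl41 (754.8 TPM, next 520), Klhl30 (127.7 TPM, next 51.7) and Klhl34 (38.1 TPM, next 14.5).

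The melanoma difference depended on the muscle in 7 of 27 tests of the difference itself by limma, 9 for each pair of muscles. Tibialis anterior minus soleus gave 1.73 for Klhl38, 1.65 for Klhl33, 0.96 for Klhl21, 0.88 for Klhl24 and -0.57 for Klhl41, where 20.4% of all genes were called, and with median-ratio scaling Klhl33, Klhl24 and Klhl21 were not called. Leaving out 1 library ended that call of Klhl41 in 15 of 39 fits and that of Klhl21 in 1, without tibialis anterior library 8 (0.85, adjusted p = 0.051). Mock diaphragm minus soleus gave 1.60 for Klhl33 and -0.68 for Klhl41, where 2.52% of all genes were called, and Klhl41 lost its call in 5 of 39 such fits.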

How the results depend on the processing

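Of the values recomputed under settings other than leaving out a library, 665 kept their direction and side of the threshold, 41 turned direction, 38 lost a call and 12 gained one, and the causes were not tested. Depth is unknown, and log2(TPM + 1) understates changes near 1 TPM.

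Members called, each with the share of all genes called in the same fit, numbered 1 in mock diaphragm (33.5%), against 2 with median-ratio scaling (16.5%), 2 without mitochondrial genes (13.5%), 2 with the clock term (26.9%) and 0 in high-state libraries (5.69%). In rFibcd1 diaphragm they numbered 3 (9.11%), against 0 by the Dunn test and 0 in high-state libraries (0% in both). In tibialis anterior they numbered 3 (60.2%), against 5 with median-ratio scaling (40.7%), and in soleus 6 (25.1%), against 3 in 1 fit of the 6 groups (21.1%). By the Dunn test, level calls went from 5 (72.5%) to 2 (51%) for diaphragm against tibialis anterior and from 4 (38.8%) to 2 (8.73%) for diaphragm against soleus. With median-ratio scaling, calls of the melanoma effect in tibialis anterior against soleus went from 5 (20.4%) to 3 (9.95%).

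Leaving out 1 library gave 1 to 2 members called in mock diaphragm (26.8% to 41.4% of all genes), 2 to 3 in rFibcd1 diaphragm (5.48% to 14.2%), 0 to 1 for rFibcd1 in cachectic mice (0% to 0.947%), 0 to 0 for rFibcd1 in non-cachectic mice (0.23% to 1.26%) and for the interaction (0% to 0.0299%), 3 to 6 in tibialis anterior (45% to 66.7%) and 4 to 5 in soleus (17.6% to 31.7%). Levels gave 9 to 9 (tibialis anterior against soleus, 65.1% to 71.9%), 4 to 6 (diaphragm against tibialis anterior, 68.2% to 75.7%) and 3 to 4 (diaphragm against soleus, 32.4% to 45.3%), and melanoma effects 4 to 5 (11.8% to 29.1%), 0 to 2 (2.36% to 11.7%) and 1 to 2 (1.55% to 4.56%) in the same order.

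The values that turned direction were not called as reported. In mock diaphragm Klhl41 became 0.084 (state term) and 0.018 (clock term), Klhl24 -0.063 (median-ratio), -0.071 (no mitochondrial genes) and -0.037 (state term), and Klhl21 0.011 (state term) and 0.12 (high state). In rFibcd1 diaphragm, without mitochondrial genes, Klhl41 became -0.040 and Klhl34 -0.0061. For rFibcd1 in cachectic mice Klhl31 became -0.0087 (median-ratio) and -0.027 (clock term), Klhl34 0.025 (state term) and Klhl24 0.029 (high state). For rFibcd1 in non-cachectic mice Klhl38 became -0.15 (median-ratio), -0.079 (no mitochondrial genes) and -0.030 (high state), Klhl41 0.043 (state term), 0.16 (clock term) and a difference in mean rank of 0.011 (Dunn), Klhl33 0.0028 (clock term), Klhl34 -0.068 (median-ratio) and -0.0077 (high state), and Klhl21 0.056 (clock term). In the interaction Klhl31 became 0.010 (high state), Klhl30 0.21 (high state) and 0.090 (clock term), Klhl34 0.046 (median-ratio) and 0.017 (state term), and Klhl21 0.076 (median-ratio) and 0.017 (no mitochondrial genes). In tibialis anterior Klhl41 became -0.38 (median-ratio) and -0.16 (no mitochondrial genes), and Klhl31 -0.26 and -0.035. In levels, Klhl40 became -0.33 for diaphragm against tibialis anterior (median-ratio), and Klhl30 0.079 (median-ratio) and 0.14 (no mitochondrial genes) for diaphragm against soleus. In melanoma effects, with median-ratio scaling, Klhl41 became 0.12 and Klhl33 0.18 for diaphragm against tibialis anterior, and Klhl31 -0.14 for tibialis anterior against soleus.

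Leaving out 1 library turned 16 results. They ranged from -0.073 to 0.019 (Klhl41, mock diaphragm), -0.028 to 0.072 (Klhl31), -0.12 to 0.057 (Klhl34) and -0.23 to 0.032 (Klhl24) for rFibcd1 in cachectic mice, and -0.042 to 0.076 (Klhl38) and -0.035 to 0.031 (Klhl41) for rFibcd1 in non-cachectic mice. Others ranged from -0.25 to 0.048 (Klhl21, interaction), -0.030 to 0.12 (Klhl41, tibialis anterior), -0.24 to 0.086 (Klhl38) and -0.042 to 0.058 (Klhl31) in soleus, -0.12 to 0.089 (Klhl33) and -0.17 to 0.039 (Klhl34) in the level of diaphragm against tibialis anterior, and -0.086 to 0.056 (Klhl30) in that of diaphragm against soleus. Melanoma effects ranged from -0.16 to 0.0053 (Klhl41) and -0.19 to 0.077 (Klhl33) in diaphragm against tibialis anterior and -0.33 to 0.12 (Klhl30) in tibialis anterior against soleus.

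Calls over all genes were 4501 in mock diaphragm, against 2218 (median-ratio), 1942 (no mitochondrial genes), 2059 (state term) and 805 (high state), and 1223 in rFibcd1 diaphragm, against 0 (Dunn), 0 (high state) and 780 (clock term). For rFibcd1 they were 6 in cachectic mice, against 30 (median-ratio), 1 (no mitochondrial genes), 0 (Dunn), 18 (state term), 789 (high state), 0 (clock term) and 127 without library 3, and 56 in non-cachectic mice, against 14 (Dunn), 36 (state term), 0 (high state) and 0 (clock term). The interaction gave 3, against 1 with no filter and 0 without mitochondrial genes and with the state term, high state or clock term. By the Dunn test, levels gave 4990 in place of 9385 (tibialis anterior against soleus) and 1178 in place of 5243 (diaphragm against soleus). Effects gave 2438 in place of 681 without mitochondrial genes (diaphragm against tibialis anterior), and 4790 without mitochondrial genes and 1343 with median-ratio scaling in place of 2750 (tibialis anterior against soleus).

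Median-ratio scaling also moved the split of higher and lower calls in rFibcd1 diaphragm from 958 and 265 to 571 and 694 (404 and 842 without mitochondrial genes). In levels it moved the split from 760 and 8625 to 2980 and 4247 (tibialis anterior against soleus), from 8640 and 1150 to 5741 and 3586 (diaphragm against tibialis anterior) and from 2266 and 2977 to 3681 and 2618 (diaphragm against soleus, 4450 and 1957 without mitochondrial genes). In effects it moved the split from 2580 and 170 to 640 and 703, from 96 and 585 to 335 and 331 and from 263 and 77 to 186 and 259 in the same order.

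Equal column numbers in different muscles deviated together in 28 of 30 pairs (r above 0.1, median 0.30), against 31 of 210 pairs of other numbers, a hint from the data, since no label says that a number marks a mouse. With that number as a replicate block, chosen after seeing the data, 9, 6 and 4 members were called in levels (tibialis anterior against soleus, diaphragm against tibialis anterior, diaphragm against soleus) and 6, 2 and 2 in effects, where 0 were called for diaphragm against tibialis anterior without it. The calls gained were, in effects, Klhl38 (-0.995, adjusted p = 0.0208) and Klhl21 (-0.66, adjusted p = 0.0295) for diaphragm against tibialis anterior and Klhl34 (-0.87, adjusted p = 0.0361) for tibialis anterior against soleus, and, in levels, Klhl38 (0.51, adjusted p = 0.0285) for diaphragm against tibialis anterior. Of all genes 76.1%, 76.9% and 49.9% were called in levels with the block, against 69.5%, 72.5% and 38.8% without it. Genes called in effects were 5569, 2317 and 994 with the block, against 2750, 681 and 340 without it (41.2%, 17.2% and 7.36% against 20.4%, 5.04% and 2.52%), and Klhl33 turned to 0.051 in the level of diaphragm against tibialis anterior. Between the groups of 1 muscle no paired analysis was possible, because they share no column numbers.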
